A study of Homo sapiens with 3 samples.

Results

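Interferon-stimulated genes were read on 3 Affymetrix expression arrays of KYSE150, a human cell line established from an oesophageal squamous carcinoma. The set is a list of 34 genes that cells switch on after interferon or after sensing foreign nucleic acid, read as a check for a response to transfected plasmid. For every gene the probe set was used that carried its symbol alone and had the highest mean over the arrays. By that rule 32 of the 34 genes had a value, out of 18132 genes in all. STAT2, a subunit of the complex that turns these genes on, was paired with no probe set in the annotation used here. The probe set of USP18, the protease that removes ISG15 from proteins, was shared with other symbols, so neither gene is given a value.

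The cells on the first array had been given pcDNA3.1 LOXL2 delta72, those on the second pcDNA3.1 LOXL2 WT, and those on the third, the control, the vector. RNA was taken 48 h later. LOXL2 is a secreted lysyl oxidase, and the labels do not say what delta72 lacks or changes. All 3 cultures had been transfected, so a response to plasmid shared by all of them cannot be seen in a difference between arrays. Each condition had 1 array, so the differences below have no replicate check, no test was made, and the words higher and lower refer to these arrays only.

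Cells meet foreign nucleic acid through sensors such as cGAS for DNA in the cytosol and MDA5, the product of IFIH1, for long double-stranded RNA. These sensors act through TBK1 and the factor IRF3 to switch on interferon genes. Secreted type I and type III interferons then act on receptors of the same or neighbouring cells, and the receptors' kinases activate a complex of STAT proteins with IRF9. That complex binds the interferon-stimulated response element (ISRE) of many antiviral genes, while dimers of STAT proteins bind the gamma-activated site (GAS). Plasmid DNA in the cytosol is a known trigger of the first step in many cell types.

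No link between promoter letters and array values was tested, and the promoters of 5 of the genes are shown. They are ISG15 and IFIT5, which read above control on both LOXL2 arrays, RSAD2, which read highest on the LOXL2 WT array, IFI35, which read below control on both, and IFIT1, a neighbour of IFIT5. The windows run from 250 bases before the start site to 50 after it, on the coding strand, 5′ to 3′, from RefSeq (GRCh38.p14). Capitals mark the letters GAAANNGAAA on either strand, searched as the ISRE, or TTCNNNGAA, searched as the GAS, which reads alike on both strands.
ISG15, chr1:1013247-1013546, plus strand: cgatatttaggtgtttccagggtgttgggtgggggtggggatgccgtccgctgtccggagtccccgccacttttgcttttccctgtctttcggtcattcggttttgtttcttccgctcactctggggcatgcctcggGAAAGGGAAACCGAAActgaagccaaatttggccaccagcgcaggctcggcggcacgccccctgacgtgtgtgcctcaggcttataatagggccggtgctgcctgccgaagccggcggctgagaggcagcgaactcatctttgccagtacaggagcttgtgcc
IFIT5, chr10:89414318-89414617, plus strand: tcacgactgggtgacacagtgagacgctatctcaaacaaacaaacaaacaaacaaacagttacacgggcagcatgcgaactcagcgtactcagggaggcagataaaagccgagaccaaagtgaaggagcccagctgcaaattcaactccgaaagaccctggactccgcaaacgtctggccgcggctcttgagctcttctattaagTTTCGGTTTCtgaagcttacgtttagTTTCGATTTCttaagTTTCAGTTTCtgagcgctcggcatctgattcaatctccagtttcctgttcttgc
IFIT1, chr10:89392373-89392672, plus strand: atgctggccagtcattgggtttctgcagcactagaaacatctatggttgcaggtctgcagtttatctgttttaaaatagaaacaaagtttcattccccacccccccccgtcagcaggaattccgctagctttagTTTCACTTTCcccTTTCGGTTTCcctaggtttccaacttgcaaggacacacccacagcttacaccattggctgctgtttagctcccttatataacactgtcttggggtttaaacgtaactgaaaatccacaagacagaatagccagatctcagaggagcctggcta
RSAD2, chr2:6877527-6877826, plus strand: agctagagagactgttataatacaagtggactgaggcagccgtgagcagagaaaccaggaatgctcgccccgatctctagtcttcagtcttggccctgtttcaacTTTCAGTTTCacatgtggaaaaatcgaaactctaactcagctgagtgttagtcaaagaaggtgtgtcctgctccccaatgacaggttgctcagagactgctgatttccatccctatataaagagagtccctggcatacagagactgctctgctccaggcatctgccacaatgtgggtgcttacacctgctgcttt
IFI35, chr17:43006534-43006833, plus strand: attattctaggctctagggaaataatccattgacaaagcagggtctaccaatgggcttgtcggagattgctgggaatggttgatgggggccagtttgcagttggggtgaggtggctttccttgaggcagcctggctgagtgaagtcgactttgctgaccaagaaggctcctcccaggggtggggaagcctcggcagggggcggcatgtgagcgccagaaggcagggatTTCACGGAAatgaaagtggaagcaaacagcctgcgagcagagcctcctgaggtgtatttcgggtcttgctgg

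ISRE letters stood 3 times in the IFIT5 window, starting 45, 19 and 4 bases before the start site. The IFIT1 window held them 2 times, 116 and 103 bases before it, and the 2 matches of ISG15, 113 and 107 bases before it, overlapped. RSAD2 has 2 listed start sites. The window of the downstream one, shown here because it held more matches, had the letters 145 bases before the start. The other RSAD2 window held neither motif. The IFI35 window held GAS letters 22 bases before the start and no ISRE letters.

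Of the 34 genes, 26 had a promoter window in the table. ISRE letters were found for 18 of these 26 (69.2%), against 4.38% of all 27305 genes with a window, and GAS letters for 8 (30.8%), against 9.38%. Either motif was present for 23 of 26, against 13.1% of all 27305 genes with a window. The windows of HERC6, STAT2 and XAF1 held neither. PARP9 and DTX3L lie head to head, and their only ISRE match is the same stretch, chr3:122564332-122564341. A match describes letters and is no evidence of a bound site.

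**Figure D1:**
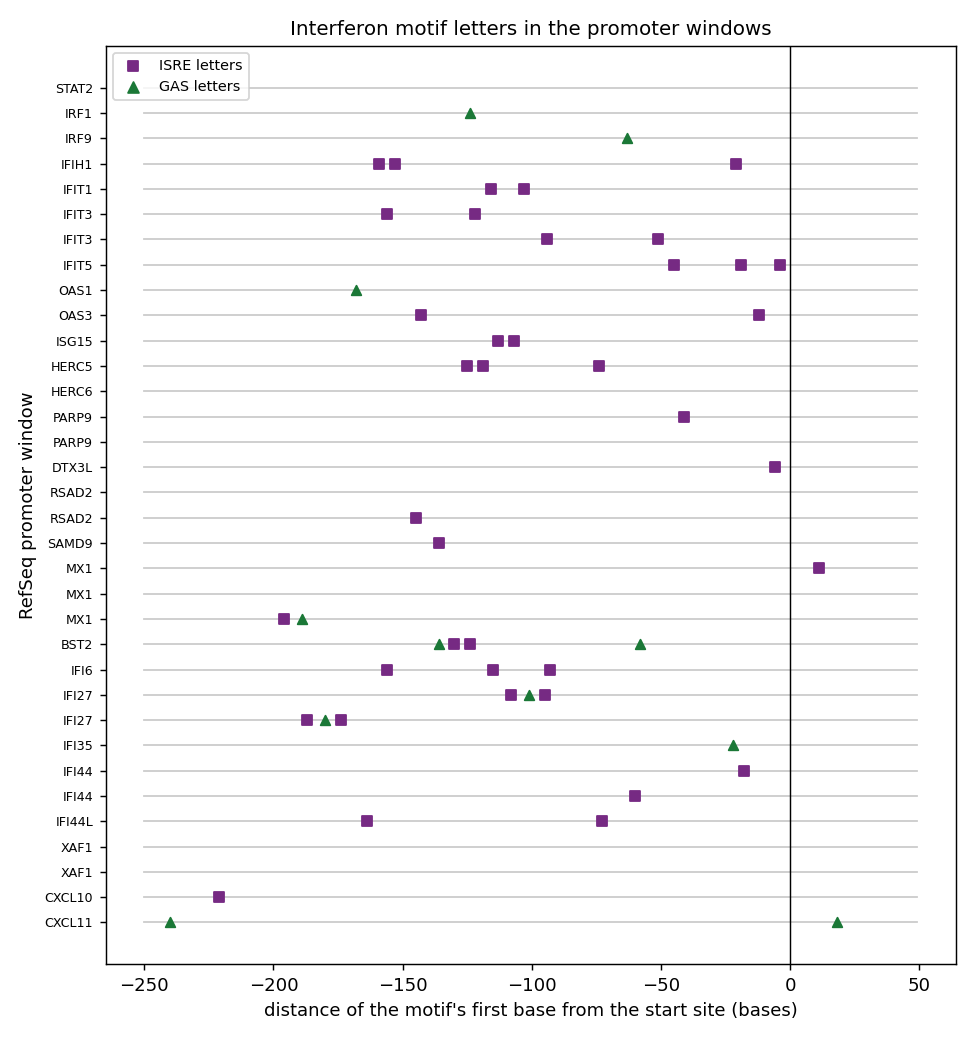
ISRE letters (squares) and GAS letters (triangles) in the RefSeq promoter windows of 26 interferon-stimulated genes, drawn by distance in bases from the start site, with 1 line per window and several lines for genes with several start sites. The 35 distinct ISRE matches begin before the start site with 1 exception, in MX1, and GAS letters are rarer.

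Levels are the deposited log2 intensities, and a gene was kept for counts when its mean over the arrays reached log2 5.27, the 40th percentile of the non-control probe sets. This filter was passed by 24 of the 34 genes and by 12232 genes in all. The 8 genes below it were IFI44L, MX1, MX2, IRF7, XAF1, CXCL10, CXCL11 and BST2, which read between 2.75 and 5.23 on the 3 arrays. They include MX1 and MX2, dynamin-like GTPases that block viruses, and CXCL10, a T-cell chemokine, all of them widely used markers of an interferon response. MX1 read 4.45 with delta72, 4.39 with WT and 4.19 in control, and CXCL10 read 3.83, 3.99 and 3.78 in the same order. CXCL11, a chemokine of the same receptor, read 2.83 with delta72, 3.19 with WT and 2.75 in control. XAF1, a promoter of cell death, read 5.08 with delta72, 4.89 with WT and 5.23 in control, and BST2, which tethers budding viruses, read 3.80, 3.76 and 3.98 in that order. The remaining dim genes were MX2, at 4.22 with delta72, 4.05 with WT and 4.07 in control, and IFI44L, at 4.20, 4.16 and 4.20. Dim probe sets may be near background, so these values do not show whether the genes were expressed.

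The arrays had a near-common scale. Their medians over all probe sets lay between 5.93 and 5.95. Over the genes above the filter the medians were 7.98 with delta72, 7.99 with WT and 7.95 in control. The brightest LOXL2 probe set read 14.06 with delta72, 14.05 with WT and 7.46 in control, and 2 further probe sets were also higher on both LOXL2 arrays. The fourth LOXL2 probe set read 8.66 with delta72, 8.32 with WT and 8.81 in control, the highest value being that of the control. Of the squamous markers, all 5 with a probe set passed the filter, with differences from control of -0.66 to 0.22 with delta72 and -0.67 to 0.34 with WT. KRT14, a basal keratin, read 7.10 with delta72, 7.08 with WT and 7.76 in control, and DSG3, a desmosomal cadherin, read 9.21 with delta72 and 9.33 with WT, 0.22 and 0.34 above control. Their part in the results was not tested. The leukocyte markers PTPRC, CD14, ITGAM and CD163 and the plasmacytoid dendritic cell markers CLEC4C and IL3RA lay below the filter, while CD68, CD3E and TCF4 passed it. Of 4 endothelial markers 3 passed it, PECAM1, VWF and KDR, and of 5 fibroblast markers 1 did, PDGFRB. Passing the filter alone does not show that a gene was expressed.

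**Figure D2:**
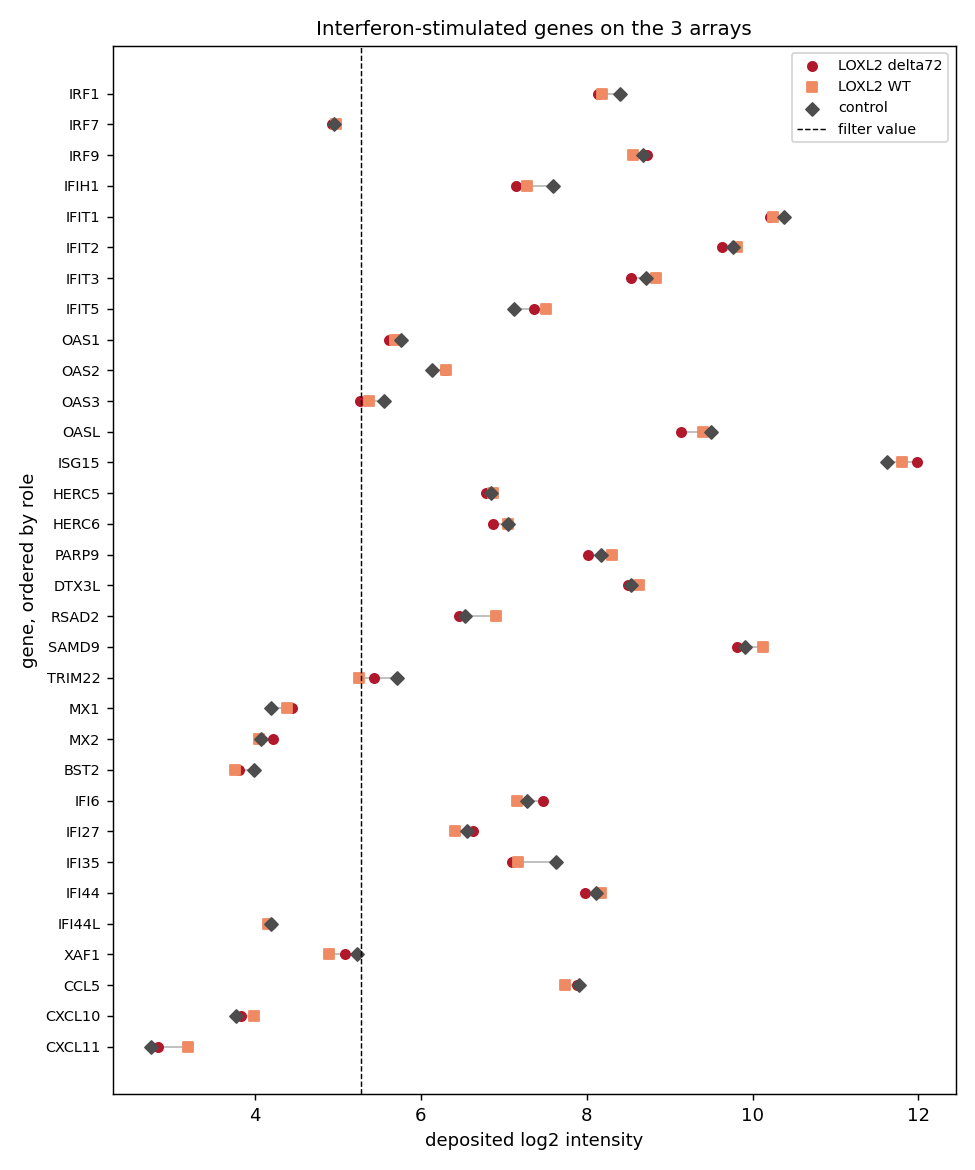
Deposited log2 intensity (x axis) of the 32 interferon-stimulated genes with a value, grouped by role from top to bottom, on the LOXL2 delta72 array (circles), the LOXL2 WT array (squares) and the control array (diamonds). The dashed line is the filter value of 5.27, and the 3 points of a gene lie close together in relation to the span of levels from 2.75 to 11.99.

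Of the 24 interferon-stimulated genes above the filter, 0 differed by 1.5-fold between any pair of arrays on the probe set used. A second RSAD2 probe set did, at 1.01 for WT minus control and -0.90 for delta72 minus WT. Between delta72 and WT the SD of the 24 differences was 0.193, against 0.132 over all genes. Over all genes above the filter, 1.78% differed by 1.5-fold or more in either direction between delta72 and control, 2.71% between WT and control and 0.221% between delta72 and WT. The count of 0 is near these shares and does not set the list apart. The differences ran from -0.53 to 0.37 with delta72 and from -0.46 to 0.39 with WT against control, and from -0.45 to 0.31 with delta72 against WT, all on the log2 scale.

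The median of the 24 differences was -0.13 for delta72 against control, -0.04 for WT against control and -0.10 for delta72 against WT, beside 0.00, -0.01 and 0.00 over all genes. Values below 0 made up 18 of 24 for delta72 minus control (49.8% of all genes), 12 of 24 for WT minus control (51.7%) and 18 of 24 for delta72 minus WT (49.3%). On the delta72 array 16 of the 24 genes had their lowest value, against 25.1% of all genes. The first and the last comparison share the delta72 array, so they are not separate evidence. The WT against control median changed sign, to 0.0149, with a filter at the 60th percentile. The largest difference among background probe sets is a value of single probe sets and no measure of the error of a median. For the 23 Affymetrix background probe sets it was 0.173 (delta72 minus control), 0.285 (WT minus control) and 0.152 (delta72 minus WT). Differences larger than these were read for 10 of the 24 genes with delta72 against control (36% of all genes), 5 with WT against control (21.7%) and 13 with delta72 against WT (20.6%).

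**Figure D3:**
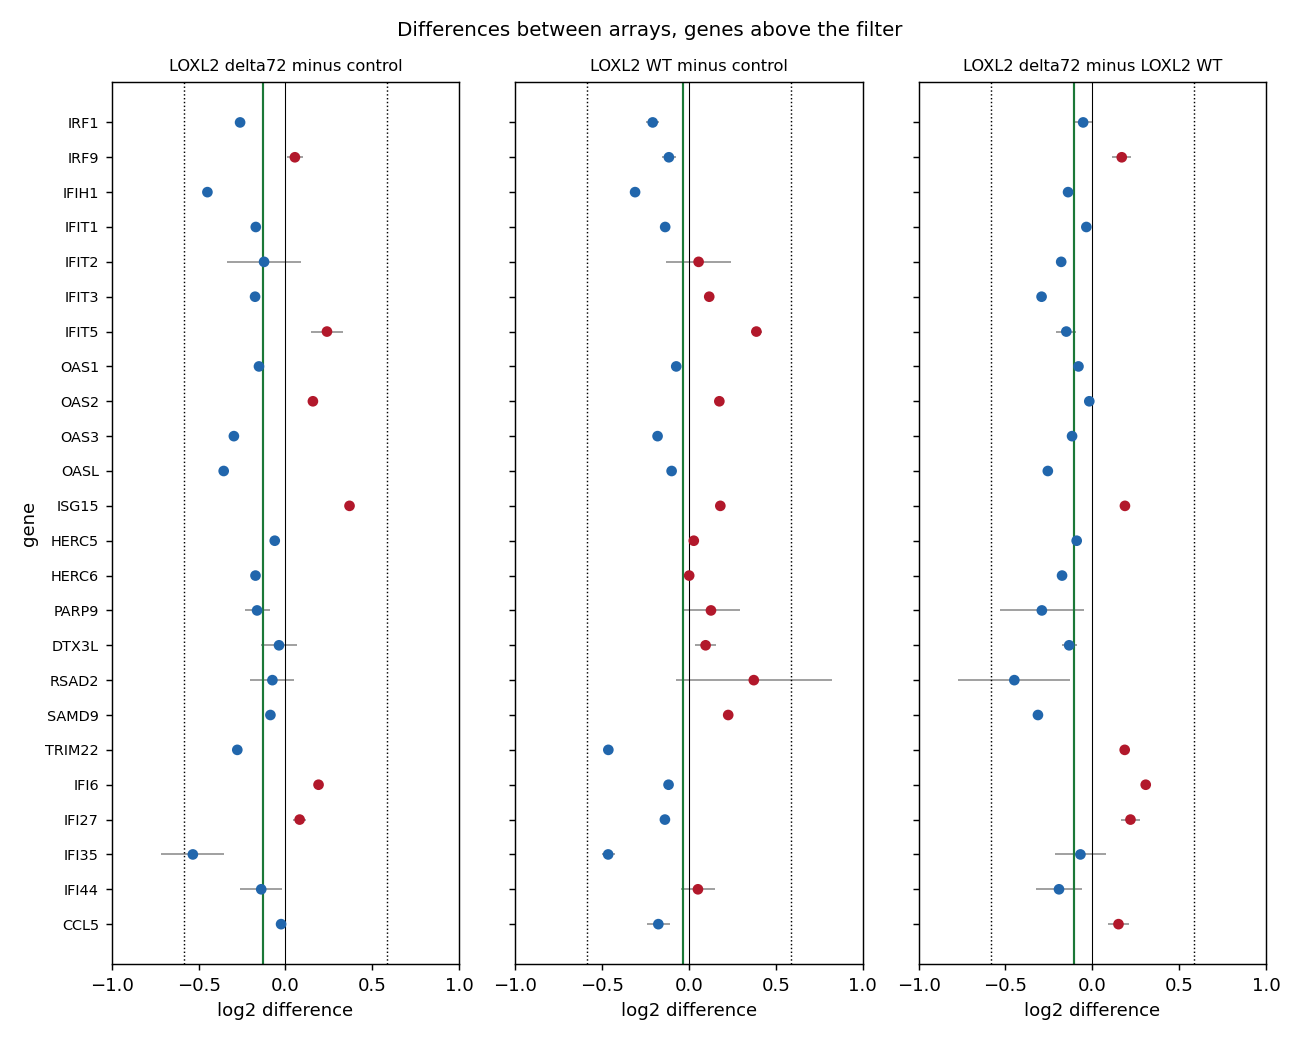
Log2 difference (x axis) of the 24 interferon-stimulated genes above the filter between LOXL2 delta72 and control (left), LOXL2 WT and control (middle) and LOXL2 delta72 and LOXL2 WT (right). Red points are above 0 and blue points below it, bars give the SD over a gene's probe sets where there are several, dotted lines mark 1.5-fold and the green line is the median, at -0.13, -0.04 and -0.10 from left to right.

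A lower threshold of 1.2-fold, chosen after the values were seen, picked out the genes that differed most. For delta72 against control 1 of the 24 genes was higher by that much, ISG15 (11% of all genes), and 5 were lower, IFI35, IFIH1, OASL, OAS3 and TRIM22 (7.75%). For WT against control 2 were higher, IFIT5 and RSAD2 (13.7%), and 3 were lower, IFI35, IFIH1 and TRIM22 (11.4%). For delta72 against WT 1 was higher, IFI6 (3.11%), and 4 were lower, RSAD2, SAMD9, IFIT3 and PARP9 (2.02%). IFI35, IFIH1 and TRIM22 thus read below control on both LOXL2 arrays, which share that 1 control array. The delta72 counts against control moved with the processing, to 2 higher with each gene at its probe set median, to 0 higher without probe sets ending in _s_at or _x_at, the type of the only ISG15 probe set, and to 3 lower with a filter at the 60th percentile.

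RSAD2 encodes viperin, an enzyme that makes a chain-terminating nucleotide and is strongly induced by interferon. It read 6.46 with delta72, 6.91 with WT and 6.54 in control. Its second probe set read 6.14 with delta72, 7.04 with WT and 6.04 in control. Both probe sets were therefore highest on the WT array and close together on the other arrays. The WT minus control difference was 0.37 (1.30-fold) on the first probe set and 1.01 on the second, an SD of 0.45. The delta72 minus WT difference was -0.45 (1.36-fold lower with delta72) and -0.90, and 0.17% of all genes had a lower value than -0.45. The probe sets thus gave the same direction and different sizes. The second one is of a type whose name ends in _x_at, which Affymetrix gives to probe sets with probes that can match other transcripts.

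The transcription factors of the pathway differed little. IRF1, which switches on interferon and immune genes and is itself induced by interferon gamma, read 8.13 with delta72, 8.19 with WT and 8.40 in control. Its differences of -0.26 and -0.21 had SDs of 0.02 and 0.04 over 3 probe sets, so its probe sets agreed closely. IRF9, the DNA-binding partner of the STAT proteins, read 8.73 with delta72, 8.56 with WT and 8.67 in control. It was thus within 0.17 between any pair of arrays. IRF7, which amplifies interferon production, lay below the filter at 4.93, 4.98 and 4.95 with delta72, WT and in control.

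The IFIT genes encode RNA-binding proteins that block translation of viral RNA, and the 4 read here lie close together on chromosome 10. IFIT1 read 10.21 with delta72, 10.24 with WT and 10.38 in control. IFIT2 read 9.63 with delta72, 9.81 with WT and 9.76 in control, and its second probe set read 6.37, 6.58 and 6.79 in the same order. IFIT3, which stabilises IFIT1, read 8.54 with delta72, 8.83 with WT and 8.71 in control, on its only probe set, of the _x_at type. These 3 genes were lowest on the delta72 array, and IFIT1 was highest in control and IFIT3 with WT. The probe sets of IFIT2 differed in where the highest value lay, WT for the first and control for the second.

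IFIT5 was the only one of the 4 above control with delta72. It read 7.36 with delta72, 7.51 with WT and 7.12 in control. The differences from control were 0.24 (SD 0.09 over 2 probe sets) and 0.39 (SD 0.03), and its second probe set gave 0.37 and 0.43. It was thus above control on both LOXL2 arrays by both probe sets.

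IFIH1 read 7.14 with delta72, 7.28 with WT and 7.59 in control, a difference of -0.45 (1.37-fold lower) and -0.31 (1.24-fold lower). Only 1.46% of all genes had a lower delta72 minus control value. Its other probe set lay below the filter, where it differed by -0.07 and -0.22.

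The oligoadenylate synthetases sense double-stranded RNA and activate RNase L, except OASL, which lacks that activity and acts on the sensor RIG-I. OASL read 9.14 with delta72, 9.40 with WT and 9.50 in control, a delta72 minus control difference of -0.36 (1.28-fold lower). The name of its only probe set ends in _x_at. OAS3 was likewise lowest with delta72, at 5.26, against 5.38 with WT and 5.56 in control. These values come from its only probe set and lie close to the filter. OAS1 read 5.61 with delta72, 5.69 with WT and 5.76 in control, on the only 1 of its 4 probe sets above the filter. OAS2 read 6.29 with delta72, 6.31 with WT and 6.13 in control and was the only one of these 4 genes above control. That rests on the 1 of its 5 probe sets that passed the filter, and the median over all 5 was -0.12 with delta72 and -0.02 with WT.

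ISG15, a ubiquitin-like protein that is attached to other proteins and also secreted, read 11.99 with delta72, 11.80 with WT and 11.62 in control, on its only probe set. The difference from control was 0.37 (1.29-fold) with delta72 and 0.18 (1.13-fold) with WT, and 94.6% of all genes had a lower delta72 minus control value. HERC5, the main ligase that attaches ISG15 in human cells, read 6.79 with delta72, 6.88 with WT and 6.85 in control. Its relative HERC6 read 6.87 with delta72, 7.05 with WT and 7.05 in control. With delta72, ISG15 was thus above control and HERC5 and HERC6 were below it.

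PARP9 and DTX3L encode partners in a complex that couples ADP-ribosylation to ubiquitin ligation. PARP9 read 8.01 with delta72, 8.30 with WT and 8.17 in control, and DTX3L read 8.50 with delta72, 8.63 with WT and 8.53 in control. On these probe sets both were highest with WT and lowest with delta72. The delta72 minus WT difference was -0.29 for PARP9, with an SD of 0.24 over 2 probe sets of opposite sign, and -0.13 for DTX3L, with an SD of 0.04.

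SAMD9, an antiviral restriction factor, read 9.82 with delta72, 10.13 with WT and 9.90 in control. Like RSAD2, it was highest with WT. TRIM22, a ubiquitin ligase with antiviral activity, read 5.44 with delta72, 5.25 with WT and 5.72 in control, close to the filter. Its difference of -0.46 with WT was read on the only 1 of its 6 probe sets above the filter, and the median over all 6 was -0.11.

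IFI35, which acts with its partner NMI in innate signalling, read 7.10 with delta72, 7.17 with WT and 7.64 in control. Its second probe set read 6.85 with delta72, 6.72 with WT and 7.13 in control. It was the lowest of the 24 genes against control, at -0.53 (1.45-fold lower, SD 0.18) with delta72 and -0.46 (1.38-fold lower, SD 0.04) with WT. Both LOXL2 arrays were below the control array on both probe sets.

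IFI6, which protects cells from death and restricts flaviviruses, read 7.47 with delta72, 7.16 with WT and 7.28 in control. IFI27 read 6.63 with delta72, 6.41 with WT and 6.55 in control. These genes were highest with delta72 and lowest with WT, with delta72 minus WT differences of 0.31 and 0.22. IFI44, a cytoplasmic protein of the antiviral response, read 7.97 with delta72, 8.17 with WT and 8.11 in control. Its second probe set read 7.96 with delta72, 7.94 with WT and 8.07 in control, and its 4 probe sets above the filter did not share a sign in any comparison. CCL5, a chemokine for T cells, read 7.88 with delta72, 7.73 with WT and 7.91 in control, and its 3 probe sets had one sign in each comparison.

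Probe sets of one gene allowed a check within the arrays, given here without the share of agreement over all genes. Of the 11 genes with several probe sets above the filter, 8 had the same sign on all of them with delta72 against control, 8 with WT against control and 7 with delta72 against WT. The SD of a difference over a gene's probe sets, pooled over all genes, was 0.145, 0.170 and 0.113 in the same order. It contains no error between cultures or hybridisations.

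**Figure D4:**
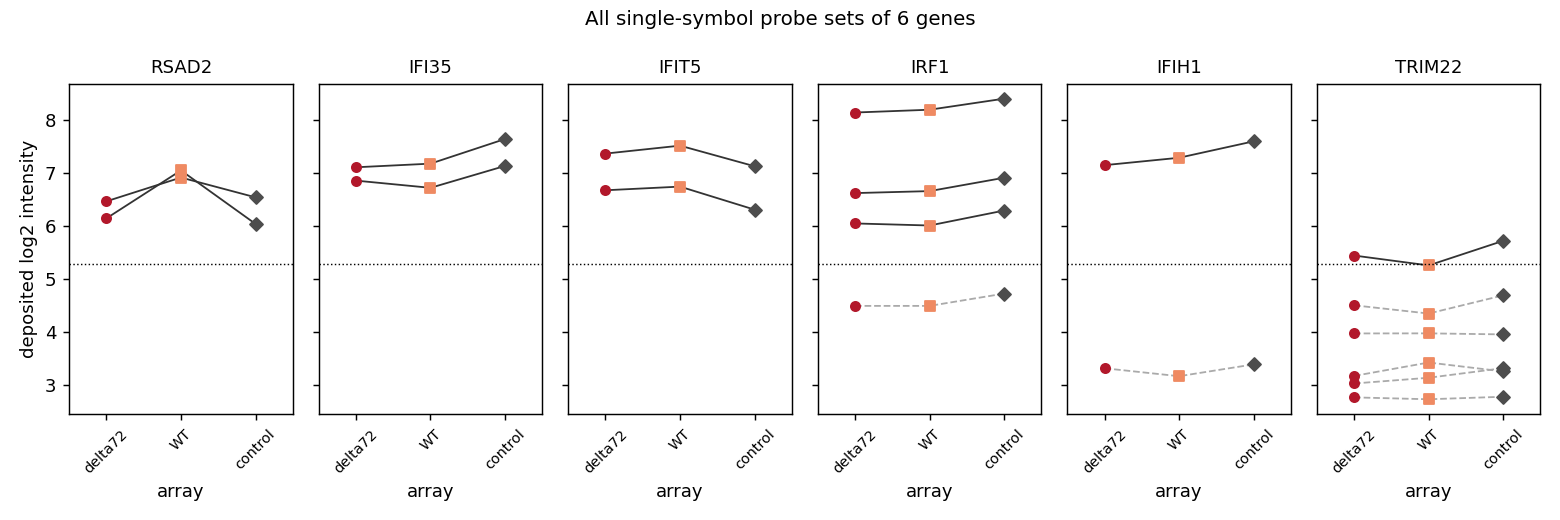
Deposited log2 intensity (y axis) of all single-symbol probe sets of RSAD2, IFI35, IFIT5, IRF1, IFIH1 and TRIM22 on the LOXL2 delta72, LOXL2 WT and control arrays (x axis), with 1 line per probe set, dashed where its mean lies below the filter (dotted line, 5.27). Both RSAD2 probe sets peak with WT, both IFI35 probe sets are highest in control and both IFIT5 probe sets are lowest in control.

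The other genes of the pathway were read from 6 lists. None of the 17 interferon genes with a probe set passed the filter. They read between 2.61 and 4.89 with delta72, between 2.59 and 4.58 with WT and between 2.44 and 4.81 in control. IFNB1, the interferon beta gene induced first after sensing, read 3.18 with delta72, 3.01 with WT and 3.39 in control. IFNL1, a type III interferon gene, read 4.89 with delta72, 4.58 with WT and 4.81 in control. The order over the arrays differed between these genes, and at such levels it has no clear meaning.

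Receptors and their kinases passed the filter in 7 of 9 cases, and 0 of the 7 differed by 1.5-fold. Over all genes, 1.78% did between delta72 and control, 2.71% between WT and control and 0.221% between delta72 and WT. The count of 0 is near these shares and does not set the receptors apart. IFNGR2 and IFNGR1, the chains of the interferon gamma receptor, lay on opposite sides of control. IFNGR2 was lower, by -0.33 with delta72 and -0.37 with WT, and IFNGR1 was higher, by 0.25 and 0.23. IL10RB, a chain of the type III receptor, differed by 0.00 and -0.17, and the kinase gene TYK2 by 0.02 and -0.15.

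Sensors and adaptors passed the filter in 14 of 19 cases, with medians of 0.01 for delta72 minus control and -0.00344 for WT minus control. Of the 14, 0 differed by 1.5-fold. The shares over all genes were 1.78% (delta72 against control), 2.71% (WT against control) and 0.221% (delta72 against WT). This count, too, is near those shares and does not set the list apart. STING1, the adaptor of the DNA sensor cGAS, read 6.34 with delta72, 6.34 with WT and 6.70 in control. CGAS itself read 5.93 with delta72, 5.99 with WT and 6.10 in control. Its differences from control, -0.16 and -0.10, were smaller than their SDs over 2 probe sets, 0.26 and 0.14. MAVS, the adaptor of the RNA sensors, read 7.74 with delta72, 7.83 with WT and 7.97 in control. Its differences, -0.23 and -0.14, had SDs of 0.16 and 0.14 over 6 probe sets. On the probe sets used, STING1, CGAS and MAVS were highest in control. DDX41, a helicase described as a DNA sensor, was highest with delta72, at 9.91, against 9.74 with WT and 9.76 in control.

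On the list of feedback inhibitors, 11 of 12 genes passed the filter. Of these, 1 reached 1.5-fold with delta72 (1.78% of all genes), while 0 did with WT (2.71%). It was ISG20, an exonuclease that is counted again on the list of other interferon-induced genes. The SOCS, CISH, PIAS and PTPN genes of the list did not reach 1.5-fold. ISG20 read 7.74 with delta72, 7.47 with WT and 7.13 in control, or 1.53-fold above control with delta72 and 1.26-fold with WT. Its order over the arrays was the same as that of ISG15. CISH, an inhibitor of cytokine receptors, differed from control by -0.34 with delta72 and by -0.02 with WT, and SOCS3 and TREX1 differed by 0.19 and -0.11 with delta72 and by 0.06 and -0.24 with WT.

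Other interferon-induced genes passed the filter in 31 of 40 cases. Their median was -0.13 for delta72 minus control and -0.12 for WT minus control, with 20 and 19 of 31 below 0 (49.8% and 51.7% of all genes), and it was 0.01 for delta72 minus WT. With delta72, 1 of the 31 differed from control by 1.5-fold, ISG20 (1.78% of all genes), and with WT 2 did, APOL6 and IFITM2, both lower (2.71%). APOL6, an apolipoprotein L gene, read 5.56 with delta72, 5.27 with WT and 6.12 in control. Its differences from control, -0.56 with delta72 and -0.85 with WT, had SDs of 0.21 and 0.38 over 3 probe sets. The WT value of APOL6 lay at the filter. IFITM2, which blocks virus entry, read 10.12 with delta72, 9.96 with WT and 10.55 in control, and its relative IFITM1 read 7.37, 7.24 and 7.82 in the same order. These 3 genes were highest in control and lowest with WT.

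Antigen presentation genes, which interferon gamma induces, passed the filter in 17 of 18 cases. Their median was -0.13 for delta72 minus control, with 14 of 17 below 0 (49.8% of all genes), and -0.21 for WT minus control, with 15 of 17 below 0 (51.7%). After the array medians were made equal, 16 and 15 of 17 were below 0, beside 57.8% and 59.4% of all genes. The list's median was 0.04 for delta72 minus WT, with 3 of 17 below 0 (49.3%). ERAP2, a peptidase that trims antigens, was at -0.60 with delta72 (1.52-fold lower, SD 0.16 over 2 probe sets), the only 1 of the 17 past 1.5-fold there (1.78% of all genes), and at -0.48 with WT, where 0 were (2.71%). TAPBP, the tapasin gene, was at -0.27 and -0.35, and CIITA, which controls the class II genes, at -0.23 and -0.52. NLRC5, which controls the class I genes, was higher on both arrays, at 0.43 and 0.43.

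**Figure D5:**
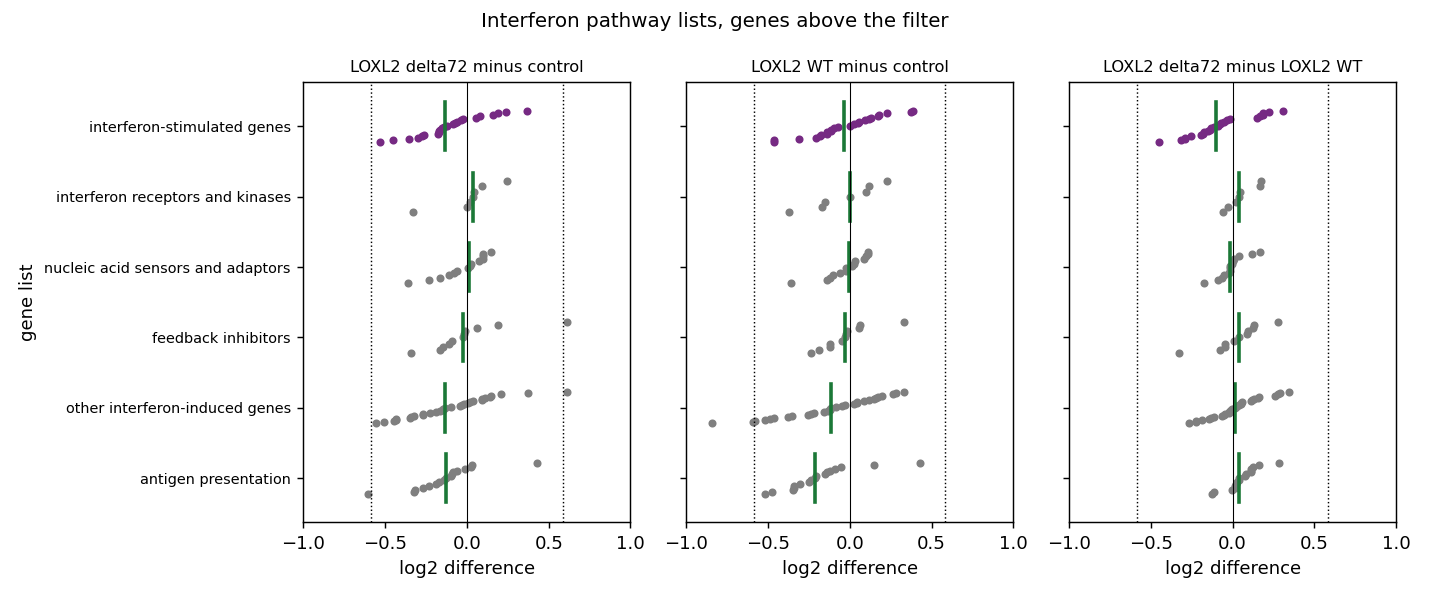
Log2 difference (x axis) of each gene above the filter in the interferon-stimulated set (purple) and in 5 further lists of the interferon pathway (grey), for delta72 against control, WT against control and delta72 against WT from left to right. Green bars are medians and dotted lines mark 1.5-fold, and the list of interferon genes is not drawn because 0 of its genes passed the filter.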

How the data were processed

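The authors deposited 1 table of log2 intensities for 49395 probe sets on 3 arrays. The log2 unit was read from the values, between 2.07 and 14.56. Per the submitters' processing notes, Partek and Affymetrix Expression Console were used. The background correction and normalization are not given in the sources, and compression of dim differences by them is possible. Of 49293 non-control probe sets, 44988 had 1 symbol, 1832 several and 2473 were not listed. Symbols came from the platform annotation, and 44967 Entrez identifiers were found in RefSeq (GRCh38.p14).

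With Python 3.11.15, log2 differences were taken between arrays for the probe set with the highest mean of each gene, and counted at 1.5-fold, or at 1.2-fold as a choice made after seeing the values, among genes at or above the 40th percentile. Counting at 1.5-fold was tested on simulated data with changes larger than that threshold, so the 1.2-fold counts were not checked by it. No test was possible with 1 array per condition, and the number of arrays limits the precision. All 34 genes were to be described, with up to 4 genes of each of 6 pathway lists, those with the largest difference from control above the filter. Genes named outside this rule were chosen after their values were seen: IFNB1 and IFNL1, and the markers. The genes and lists were chosen with earlier results of these data known. Alternatives were array scaling, the probe set rule and the filter.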

Additional observations from a re-analysis of the deposited data

How the results depend on the processing

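Medians of the set are given against -0.13 for delta72 minus control, -0.04 for WT minus control and -0.10 for delta72 minus WT. With each gene at the median of its probe sets, the delta72 minus control median was -0.0867 over 21 genes, and with no filter -0.0810 over 32. For WT minus control it was 0.0149 with the filter at the 60th percentile, a change of sign, and -0.0940 without probe sets ending in _s_at or _x_at, an alternative added after seeing the data. For delta72 minus WT it was -0.0740 with no filter and -0.136 with that stricter filter. With genes at their probe set median, 1 gene, RSAD2, was at least 1.5-fold higher for WT minus control and 1 at least 1.5-fold lower for delta72 minus WT, against 0 and 0. At 1.2-fold, genes higher with delta72 than control numbered 2 at the probe set median and 0 without _s_at or _x_at sets, against 1, and with the stricter filter 3 were lower with delta72, against 5, and 1 higher with WT, against 2. OAS2 at its probe set median was -0.12 with delta72 and -0.02 with WT, against 0.16 and 0.18, and IFI44 was -0.01 for delta72 minus WT, against -0.19. The cause of these moves was not tested. The other medians moved by less than their probe error, and the other counts at 1.5-fold kept their value of 0. A shift to a common median gave medians of -0.16, -0.08 and -0.09, and the number of genes below 0 for WT minus control became 14. Under that shift 59.4% of all genes were below 0 for WT minus control, against 51.7% as deposited. No paired analysis was possible because each condition has 1 array. The number of arrays limits the precision, and signal over background is not known for the dim genes.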

Other observations

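Several genes of the set are neighbours, and their order over the arrays could be compared. On chromosome 12, OAS1 and OAS3 were lowest with delta72 and highest in control, whereas OAS2, beside them, read 0.16 and 0.18 above control with delta72 and WT on 1 probe set, and -0.12 and -0.02 at the median of its 5. On chromosome 4, HERC6 and HERC5 were both lowest with delta72, with delta72 minus WT differences of -0.17 and -0.09. On chromosome 3, the brightest probe sets of PARP9 and DTX3L had the same order over the arrays, but a second PARP9 probe set, at 6.95 with delta72, 6.90 with WT and 7.01 in control, did not. On chromosome 1, the probe sets of IFI44 did not share a direction, and IFI44L, below the filter, differed from control by 0.00 with delta72 and -0.04 with WT. Each of these orders rests on 1 array per condition.

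Over the arrays, the spread of the 24 genes differed between comparisons. The SD of their delta72 minus WT differences was 0.193, against 0.132 over all genes, while for delta72 minus control it was 0.214 against 0.225 and for WT minus control 0.223 against 0.255. For delta72 minus WT, 5 of the 24 lay below the 5th percentile of all genes and 1 above the 95th. These counts describe single arrays, and chance was not tested.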
